A study of Mus musculus with 19 samples.

Results

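The calcineurin subunits and NFAT factors described here are 8 of the 28692 genes measured in mouse thymocytes. They were chosen by name and are the catalytic subunits Ppp3ca, Ppp3cb and Ppp3cc, the regulatory subunit Ppp3r1, the transcription factors Nfatc1, Nfatc2 and Nfatc3, and the calcineurin inhibitor Rcan1. RNA and 111 surface proteins were counted in the same single cells by CITE-seq, in which antibodies carry DNA tags that are sequenced with the RNA, from thymi of 17 untreated female mice of 7 genotypes aged 4 to 8 weeks. Wild-type (WT) C57BL/6 mice numbered 5. The 6 CD4-fated mice were 2 AND mice, which carry a T cell receptor (TCR) transgene for MHC class II and lack Rag1, 2 OT-II mice, which carry another class II-restricted TCR transgene, and 2 MHCI-/- mice, which lack B2m and have diverse TCRs. The 6 CD8-fated mice were 2 F5 mice, which carry a class I-restricted TCR transgene and lack Rag1, with both chains named for the CD2 promoter, 2 OT-I mice, which carry another class I-restricted TCR transgene, and 2 MHCII-/- mice, which lack H2-Ab1 and have diverse TCRs. Rag1 deficiency, which prevents any other receptor from being made, was stated only for AND and F5, so a fate here belongs to the genotype and not to each cell. The MHC-deficient mice and WT replicates 1 to 3 had been sorted for CD5+TCRβ+ cells, and the others were unsorted. The library titles give 3 experiments: WT replicate 1 and the first AND and F5 mice were in experiment 1, WT replicates 2 and 3, the second AND and F5 mice and the MHC-deficient mice in experiment 2, and the remaining WT and the OT mice in experiment 3.

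Calcineurin is a phosphatase made of a catalytic subunit, a calcium-binding regulatory subunit and calmodulin, and it is switched on when TCR engagement raises calcium in the cell. It removes phosphates from NFAT factors, which then enter the nucleus and act on target genes together with other factors, while kinases such as GSK3 and export proteins return them to the cytoplasm. In the thymus the pathway is known for its part in positive selection, the step at which CD4+CD8+ double-positive (DP) thymocytes with a usable receptor become CD4 or CD8 single-positive cells, and cyclosporin A and FK506 block it. NFAT activity is set by phosphorylation and location, and RNA counts measure neither.

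Stages were set from antibody counts, and the clusters that were left out were made without the members, so no member's RNA chose a cell. DP cells were split into CD69- and CD69+ (CD69 appears after TCR signaling), followed by CD4+CD8lo cells, CD69+ semi-mature (SM) and CD69- mature CD4 cells, and SM and mature CD8 cells. A gate of CD69+CD127+TCRβ+ DP cells (DP3; 506 cells in the gate, 4 mice with enough of them for a sum) is in no comparison. For AND replicate 2 the thresholds were raised by 0.5 on the log2 scale, because its antibody background was 4.04 times that of the median lane, and 42.1% of its barcodes passed the filters. Of 72054 cells that passed filters, 2906 called doublets and 15477 cells of RNA clusters named cycling-like, Treg-like, negative selection-like, gamma-delta T-like, DN-like, myeloid-like, B-like and interferon-like were left out before gating. Of the remaining 53671, 48587 fell in a gate, and UMIs (counted RNA molecules) were summed per mouse and gate with at least 30 cells, which gave 101 sums. Levels below are CPM, the UMIs of a gene on a common scale per total UMIs of the sum. Because one read end near the 3′ end of a transcript was counted, levels are compared between samples and not between genes, and fewer cells with a transcript cannot be told apart from less of it per cell.

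The lanes held medians of 1519 to 7259 UMIs per cell that passed, so sums and not single cells were compared. In the MHCI-/- mice B2m stood at 51.7 and 54.4 CPM, against 419.7 to 1490 in the other 15 mice, whereas H2-Ab1 RNA (6.29 and 7.09 in the MHCII-/- mice, 0.691 to 22.0 in the others) did not separate the MHCII-/- mice. The I-A/I-E antibody did, at 2.22 and 2.25 of 10000 antibody UMIs in their lanes against 23.9 to 129 in the other 17. The gates matched RNA clusters in part: 50.03% of DP CD69- cells lay in clusters named quiescent DP-like from their markers, 51.5% of DP CD69+ cells in signaled DP-like and 86.8% of mature CD4 cells in mature SP-like clusters. For mature CD8 cells this was less clear, as 47.0% lay in CD8 SP-like and 33.8% in unnamed clusters. WT replicate 5, OT-I replicate 2 and OT-II replicate 2 formed the second library set of experiment 3, numbered apart from the first in the library titles, with lane medians of 1519 to 3192.5 UMIs per cell against 2880 to 7259. Against the deeper mouse of the same genotype and gate, Nfatc1 was higher in them in 16 of 17 pairs (median ratio 1.73), Nfatc3 in 13 (1.34) and Ppp3ca in 14 (1.28), while Nfatc2 and Ppp3cc were higher in 2 each (0.752 and 0.723). Ppp3cb, Ppp3r1 and Rcan1 were higher in 11, 10 and 6 of the pairs. The part of depth in these levels was not tested, and calls that change without these 3 mice are given beside them.

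The genes lie on different chromosomes in GRCm38 except for Ppp3cb (chromosome 14, 20499364 to 20546573, minus strand) and Ppp3cc (chromosome 14, 70217865 to 70289471, minus strand). Ppp3ca spans chromosome 3, 136670124 to 136937727, and Ppp3r1 chromosome 11, 17159263 to 17200375, both on the plus strand. Nfatc2 (chromosome 2, 168476410 to 168601657) is on the minus strand and Nfatc3 (chromosome 8, 106058840 to 106130537) on the plus strand. Rcan1 occupies chromosome 16, 92391953 to 92470867, on the minus strand, and has both an upstream and an internal start. The internal start is known as the one that NFAT acts on, and it is shown with the upstream one because counting at the 3′ end cannot separate their transcripts, which limits what the Rcan1 level below can say. The RefSeq promoters (GRCm38.p6, 250 bases before to 50 after the start, 5′ to 3′ on the minus strand) follow, with the NFAT core GGAAA and its reverse complement TTTCC in capitals.
Rcan1 upstream promoter, chr16:92466120-92466419: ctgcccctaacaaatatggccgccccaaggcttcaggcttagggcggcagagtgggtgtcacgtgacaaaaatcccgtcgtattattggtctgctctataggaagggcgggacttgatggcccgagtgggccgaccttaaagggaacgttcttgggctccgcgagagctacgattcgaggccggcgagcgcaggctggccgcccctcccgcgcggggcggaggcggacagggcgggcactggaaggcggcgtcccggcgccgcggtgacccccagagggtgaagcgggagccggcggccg
Rcan1 internal promoter, chr16:92400029-92400328: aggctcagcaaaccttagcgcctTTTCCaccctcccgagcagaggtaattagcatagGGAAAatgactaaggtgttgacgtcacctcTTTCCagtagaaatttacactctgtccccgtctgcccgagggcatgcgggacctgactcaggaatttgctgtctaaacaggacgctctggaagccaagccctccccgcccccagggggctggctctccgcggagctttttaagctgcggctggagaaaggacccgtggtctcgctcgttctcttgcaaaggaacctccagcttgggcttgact
The internal promoter held 3 matches and the upstream one 0. Of 32851 RefSeq promoters of that length, 9.42% held at least 3 and 61.3% at least 1, so the letters are common and a match is a description, not a site. The other members with a promoter in the table had 4 matches (Ppp3cb, a number reached by 2.65% of promoters), 3 and 1 (the promoters of Nfatc2), 1 and 0 (those of Nfatc3) and 0 (Ppp3r1).

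The first question was how each member changed from stage to stage, with each mouse compared with itself. Fold changes are log2 values of edgeR's quasi-likelihood test with the mouse as a block, with the standard error (SE). Adjusted p-values are Benjamini-Hochberg values over all genes tested, and the threshold was 0.05. From DP CD69- to DP CD69+ (9 unsorted mice) 2 of the 6 members that passed the low-count filter changed, where 18% of all genes tested did. From DP CD69+ to CD4+CD8lo (14 mice) 1 of 7 changed, against 15.2% of genes, from CD4+CD8lo to CD4 SM (11 mice) 5 of 8, against 27.6%, and from CD4 SM to mature CD4 (11 mice) 5 of 8, against 30%. On the CD8 side, 5 of 7 changed from CD4+CD8lo to CD8 SM (9 mice), against 36.3% of genes, and 3 of 7 from CD8 SM to mature CD8 (9 mice), against 15.3%. The 5 WT mice are in the steps of both lineages. Their CD4+CD8lo sums, which are not split by fate, start both paths, so the paths are not independent. The part of cells of the other fate in the steps out of CD4+CD8lo was not tested.

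The scale of these values matters. Trimmed mean (TMM) scaling sets the middle of all genes near 0 in each step. When sums were scaled by their total UMIs instead, the median gene fell by 0.17 from CD4+CD8lo to CD4 SM, by 0.13 from CD4 SM to mature CD4 and by 0.23 from CD4+CD8lo to CD8 SM, on the log2 scale. Changes in those steps are therefore relative to the median gene, and a member can pass as higher while its CPM barely moved. Of the genes called in these steps, 49.7%, 55.2% and 51.3% were higher in the later stage with TMM, and 19.7%, 23.9% and 23.3% with total UMIs. From DP CD69+ to CD4+CD8lo this share was 53.5% and 35.5%, and from CD8 SM to mature CD8 54.0% and 30.3%. The earlier 2 steps moved by less than 0.1 at the median gene, and the CD8 SM to mature step fell by 0.0891.

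**Figure D1:**
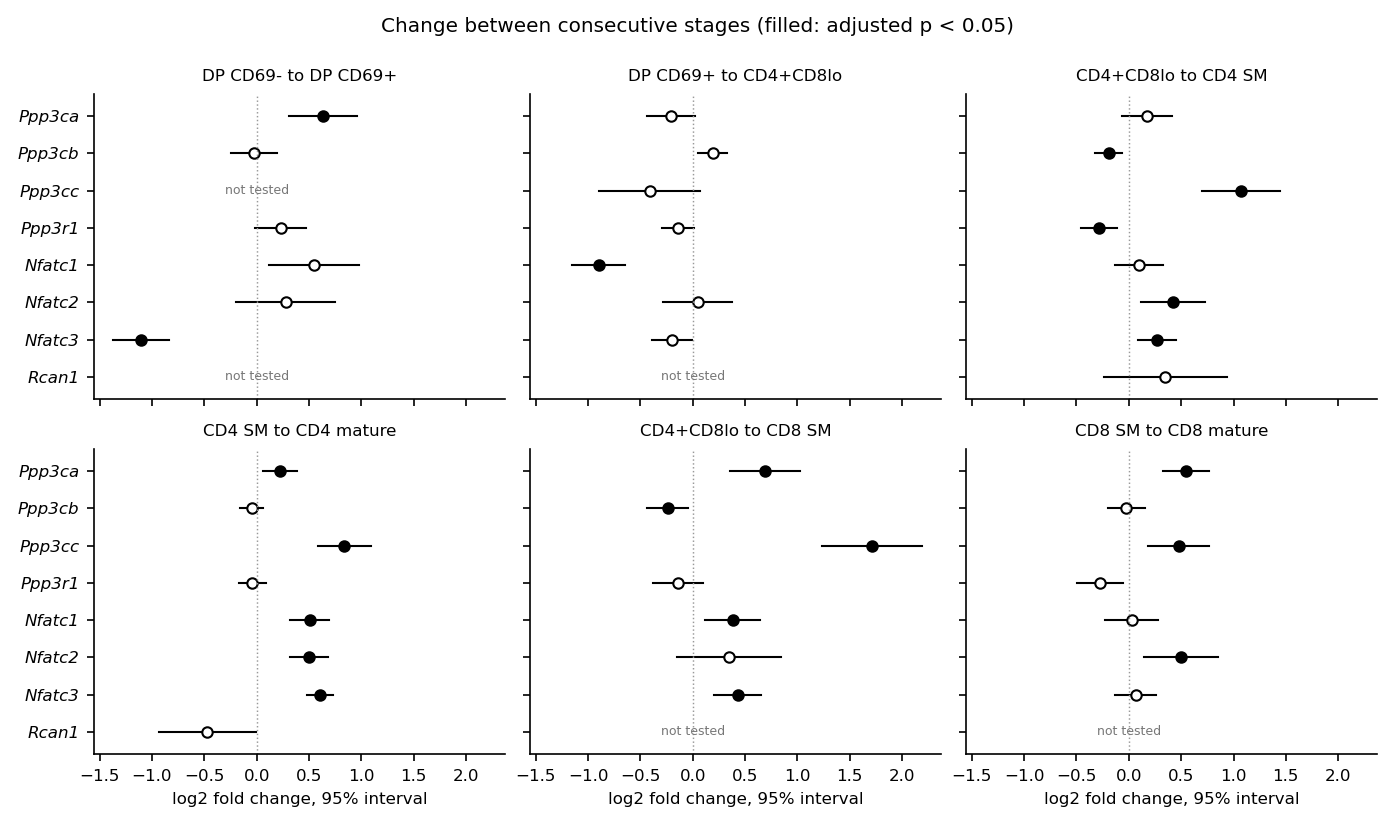
Log2 fold changes of the 8 members in the 6 stage steps, with 95% intervals from edgeR; filled points passed the adjusted threshold of 0.05 and open points did not. Ppp3cc rose in the 4 steps from CD4+CD8lo on, Nfatc3 fell by 1.10 at the first step, and Nfatc1 fell by 0.90 at the second.

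Ppp3ca, the catalytic subunit Aα, rose at the first step and again on the way to mature cells of either lineage. In DP CD69- cells of the 9 unsorted mice it ran from 19.4 CPM (F5 replicate 1) through a median of 36.9 to 59.7 (OT-I replicate 2), and in DP CD69+ cells from 22.3 through 41.9 to 137 (OT-II replicate 2). It was higher in DP CD69+ cells in 7 mice and lower in both OT-I mice, and the ranges overlapped. The DP CD69+ sums held 160 Ppp3ca UMIs over the 9 mice. The fold change was 0.63 ± 0.16 (SE; adjusted p = 0.0055), and with the gate thresholds raised by 0.25 it no longer passed (0.41, adjusted p = 0.39). At this step the median summed CPM of 7 quiescent DP markers went from 4347 to 2560 (higher in 0 of 9 mice). That of 8 signaled DP markers went from 1371 to 2371 (higher in 8 of 9), and their part in the Ppp3ca value was not tested. From CD4+CD8lo to CD8 SM Ppp3ca went from 9.96, 29.7 and 61.1 (lowest, median and highest) to 23.1, 36.4 and 70.6, higher in 7 of 9 mice (0.69 ± 0.16, adjusted p = 0.0015). From CD8 SM to mature CD8 it went on to 39.98, 56.2 and 82.3 and was higher in all 9 mice (0.55 ± 0.11, adjusted p = 6.6e-05). In the CD4 lineage the change was smaller: 26.2, 36.6 and 72.4 in CD4 SM became 26.9, 39.1 and 81.1 in mature CD4 cells, higher in 7 of 11 mice (0.22 ± 0.08, adjusted p = 0.031). That last call was lost with total-UMI scaling (0.10, adjusted p = 0.33), with DESeq2 (adjusted p = 0.093), without the second library set (adjusted p = 0.052) and on leaving out any of 5 single mice (adjusted p up to 0.12).

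Ppp3cb, the subunit Aβ, went the other way at the point where cells left the CD4+CD8lo stage. It ran from 79.2 through 91.0 to 126.8 CPM in CD4+CD8lo cells of 11 mice and from 67.6 through 73.6 to 85.3 in CD4 SM cells, and it was lower in CD4 SM in all 11. The ranges touched only between 79.2 and 85.3 CPM. Relative to the median gene it fell by 0.19 ± 0.06 on the log2 scale (adjusted p = 0.023), and with total-UMI scaling by 0.34 (adjusted p = 6.9e-05). In the step to CD8 SM it was lower in 8 of 9 mice, with medians of 99.2 and 71.4, and fell by 0.24 ± 0.09 (adjusted p = 0.048). Summed DP markers fell beside it in every mouse of both steps. Toward CD4 SM the median of 7 quiescent DP markers went from 1438 to 478 CPM and that of 8 signaled DP markers from 4893 to 2402 (11 mice). Toward CD8 SM they went from 1583 to 487 and from 3587 to 771 (9 mice), and their part in the Ppp3cb values was not tested. These calls were narrow: the one in the CD4 lineage was lost in 6 of 9 alternatives, among them DESeq2 (adjusted p = 0.068) and no low-count filter (adjusted p = 0.12). The one in the CD8 lineage was lost in 7 of 9, among them DESeq2 (adjusted p = 0.18). Single mice ended them too, the largest adjusted p being 0.090 without WT replicate 3 in the CD4 lineage and 0.30 without MHCII-/- replicate 2 in the CD8 lineage. From DP CD69+ to CD4+CD8lo, among the alternative settings, it passed as higher only without the second library set (0.21, adjusted p = 0.041). In mature CD4 cells it was lower still in 10 of 11 mice (54.2, 65.2 and 73.3), which was -0.05 ± 0.05 relative to the median gene and -0.17 by total UMIs (adjusted p = 0.012).

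Ppp3cc, the subunit Aγ, was a member that rose at each step from CD4+CD8lo on, in both lineages. Its CPM in CD4+CD8lo cells of the 11 mice of the CD4 path were 0, 7.43 and 15.5 (lowest in OT-II replicate 2, median, highest in AND replicate 1). They became 5.17, 14.9 and 26.6 in CD4 SM cells and 10.2, 23.3 and 46.3 in mature CD4 cells, highest there in WT replicate 1. The rise was 1.07 ± 0.18 (adjusted p = 1.8e-05, 9 of 11 mice higher) and then 0.84 ± 0.12 (adjusted p = 3.0e-06, 10 of 11 higher), and both calls held under each alternative run and each mouse left out. On the CD8 path 4.15, 6.20 and 11.7 in CD4+CD8lo cells became 8.82, 14.7 and 31.0 in CD8 SM and 11.4, 29.5 and 38.1 in mature CD8 cells. All 9 mice were higher in CD8 SM (1.71 ± 0.23, adjusted p = 2.1e-06), and 8 of 9 were higher again in mature cells (0.48 ± 0.14, adjusted p = 0.013). The last call was lost under DESeq2 (adjusted p = 0.064) and without WT replicate 4 (adjusted p = 0.061). These were small counts: the CD4+CD8lo sums held 68 UMIs of Ppp3cc over the mice of the CD4 path and 70 over those of the CD8 path. At the first step, where it stood at 3.78 to 20.9 CPM in DP CD69- cells, it did not pass the low-count filter.

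Ppp3r1, the regulatory subunit B that catalytic subunits need in order to work, was lower after CD4+CD8lo. In the 11 mice its CPM were 42.6, 58.3 and 81.4 in CD4+CD8lo cells and 37.3, 40.9 and 49.1 in CD4 SM cells, and it was lower in CD4 SM in 10 mice, all but AND replicate 1. It fell by 0.29 ± 0.08 relative to the median gene (adjusted p = 0.0089). The list of 8 signaled DP markers fell at that step in 11 of 11 mice (median summed CPM of 4893 and 2402), as did that of quiescent DP markers (1438 and 478), and their part in the Ppp3r1 value was not tested. On the CD8 path it was lower in CD8 SM in 8 of 9 mice and lower again in mature cells in 7 of 9 (medians of 52.2, 40.6 and 32.3). These changes were -0.14 ± 0.11 (adjusted p = 0.37) and -0.27 ± 0.11 (adjusted p = 0.089). With total-UMI scaling both passed, at -0.33 (adjusted p = 0.028) and -0.35 (adjusted p = 0.019), as did the step from CD4 SM to mature CD4 (-0.17, adjusted p = 0.037).

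**Figure D2:**
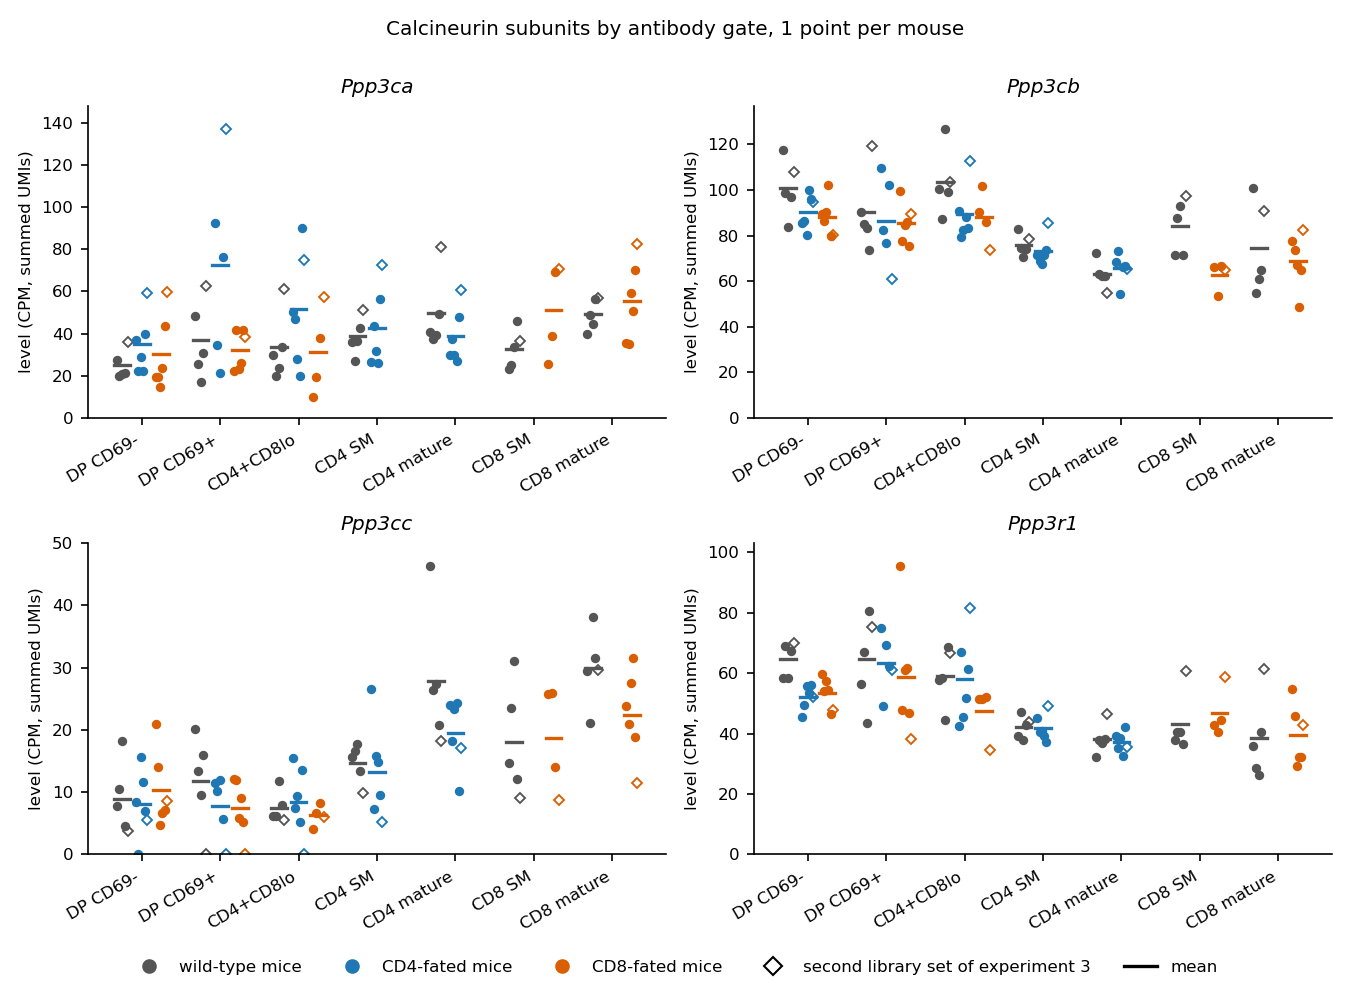
Levels of the calcineurin subunits (vertical axes, CPM) by antibody gate (horizontal axis), with 1 point per mouse, colored by lineage group, a bar for the mean of each group and open diamonds for the second library set of experiment 3. Ppp3cc lies at 0 to 15.5 CPM in CD4+CD8lo and at 10.2 to 46.3 in mature CD4 cells of the mice compared, and Ppp3r1 at 42.6 to 81.4 and at 32.2 to 46.3.

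Nfatc3 fell at the first step. It is an NFAT factor abundant in DP thymocytes, and in DP CD69- cells it ran from 59.5 (F5 replicate 1) through 118 to 293 CPM (WT replicate 5), against 24.4, 45.8 and 132 in DP CD69+ cells of the same 9 mice. It was lower in DP CD69+ cells in all 9 mice, although the ranges over mice overlapped because F5 mice were low and WT replicates 4 and 5 high in both gates. The fold change was -1.10 ± 0.13 (adjusted p = 6.9e-07), and it lay between -1.21 and -0.98 with single mice left out. In the 7 sorted mice, which that fit did not use, it was -1.44 (adjusted p = 1.7e-13). The summed CPM of a list of 7 quiescent DP markers fell at the same step in 9 of 9 mice, from a median of 4347 to 2560, and its part in the Nfatc3 value was not tested. Nfatc3 then rose late: from 31.6, 48.7 and 75.0 CPM in CD4 SM to 58.3, 63.1 and 119 in mature CD4 cells, higher in 11 of 11 mice (0.60 ± 0.06, adjusted p = 1.9e-09, held under each alternative and each mouse left out). At that step the summed signaled DP markers fell from a median of 2402 to 835 CPM and the Treg markers from 529 to 342, each higher in 0 of 11 mice. Cycling markers fell from 399 to 220 (higher in 1 of 11). The part of these markers in the rises of the members at that step was not tested.

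From DP CD69+ to CD4+CD8lo Nfatc3 passed, among the alternative settings, only with lowered thresholds (-0.30, adjusted p = 0.0082). Without OT-II replicate 1, 2 members passed at that step, where the whole fit called 1. Nfatc3 then passed the test in both steps out of CD4+CD8lo, at 0.27 ± 0.09 toward CD4 SM (adjusted p = 0.018, higher in 7 of 11 mice) and 0.43 ± 0.11 toward CD8 SM (adjusted p = 0.0028, higher in 8 of 9). With total-UMI scaling neither passed (0.12, adjusted p = 0.28, and 0.25, adjusted p = 0.062), and the first was lost without WT replicate 2 (adjusted p = 0.058) or MHCI-/- replicate 2 (adjusted p = 0.054). From CD8 SM to mature CD8 it was higher in 5 of 9 mice, at 0.07 ± 0.10 (adjusted p = 0.75; -0.01 by total UMIs).

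Nfatc1, which encodes an NFAT factor with a short isoform that NFAT itself induces, was high in DP CD69+ cells and lower in CD4+CD8lo cells. The gene lies on the minus strand of chromosome 18, at 80606205 to 80713071 in GRCm38. Over 14 mice it ran from 18.2 (OT-I replicate 1) through 55.1 to 123 CPM (WT replicate 5) in DP CD69+ cells and from 19.2 through 27.0 to 51.9 in CD4+CD8lo cells. The mice that did not go down were AND replicate 1 and both OT-I mice, and the ranges overlapped. The DP CD69+ sums of these mice held 156660 to 384218 UMIs of all genes, so their Nfatc1 levels rest on few UMIs. Nfatc1 fell by 0.90 ± 0.13 on the log2 scale (adjusted p = 1.2e-06). It did so under each alternative and each mouse left out, including without the second library set (-0.94, adjusted p = 7.4e-06) and without the mouse as a block (-0.87, adjusted p = 0.0094). A list of 6 negative selection markers fell at the same step in 13 of 14 mice, from a median summed CPM of 698 to 214, and a list of 6 Treg markers from 597 to 356. None of the markers of either list was at 0, although the clusters named negative selection-like and Treg-like were out of the sums, and their part in the Nfatc1 value was not tested.

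Into DP CD69+ cells the Nfatc1 values differed in direction between mice, on few UMIs in many of them. The DP CD69+ sums of the 9 unsorted mice held 193 Nfatc1 UMIs, 59 of them in WT replicate 5. That of OT-II replicate 2 held 65568 UMIs of all genes, so the order of single mice is not settled. Nfatc1 was 123 against 46.9 CPM in WT replicate 5, 70.5 against 27.3 in WT replicate 4, 61.0 against 47.3 in OT-II replicate 2 and 52.8 against 30.8 in F5 replicate 1 (DP CD69+ first). The other 5 unsorted mice were lower in DP CD69+ cells. The change of 0.55 ± 0.21 did not pass (adjusted p = 0.070). It passed with raised thresholds (0.97, adjusted p = 0.0034), without the low-count filter (0.48, adjusted p = 0.020), with called doublets kept (0.58, adjusted p = 0.034) and without OT-I replicate 1 (0.66, adjusted p = 0.026) or 2 (0.62, adjusted p = 0.042). In the sorted mice the DP CD69- and DP CD69+ levels were 29.6 and 62.3 in WT replicate 1, 25.0 and 63.6 in replicate 2 and 40.1 and 49.3 in replicate 3. They were 31.4 and 69.4, and 24.5 and 65.0, in the MHCI-/- mice, and 22.7 and 44.2, and 25.3 and 37.7, in the MHCII-/- mice. All of these rose, by 1.03 in the fit (adjusted p = 1.9e-08), and the sort was for CD5+TCRβ+ cells, so the sorted and unsorted mice do not hold the same DP CD69- cells.

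Later, Nfatc1 rose from 17.4, 22.0 and 47.8 CPM in CD4 SM to 23.7, 35.9 and 79.4 in mature CD4 cells. It was higher in 10 of 11 mice, all but OT-II replicate 1 (0.51 ± 0.09, adjusted p = 6.0e-05). Toward CD8 SM it passed at 0.38 ± 0.13 (adjusted p = 0.021, higher in 6 of 9 mice). This call was lost under DESeq2 (adjusted p = 0.063), with total-UMI scaling (0.20, adjusted p = 0.23), with raised thresholds (0.06, adjusted p = 0.79) and without any of 3 single mice (adjusted p up to 0.060). The list of negative selection markers was higher in CD8 SM in 8 of 9 mice (median 451 against 216) and that of Treg markers in 9 of 9 (503.5 against 349.8), with both clusters of those names out of the sums. Their part in the Nfatc1 value was not tested.

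**Figure D3:**
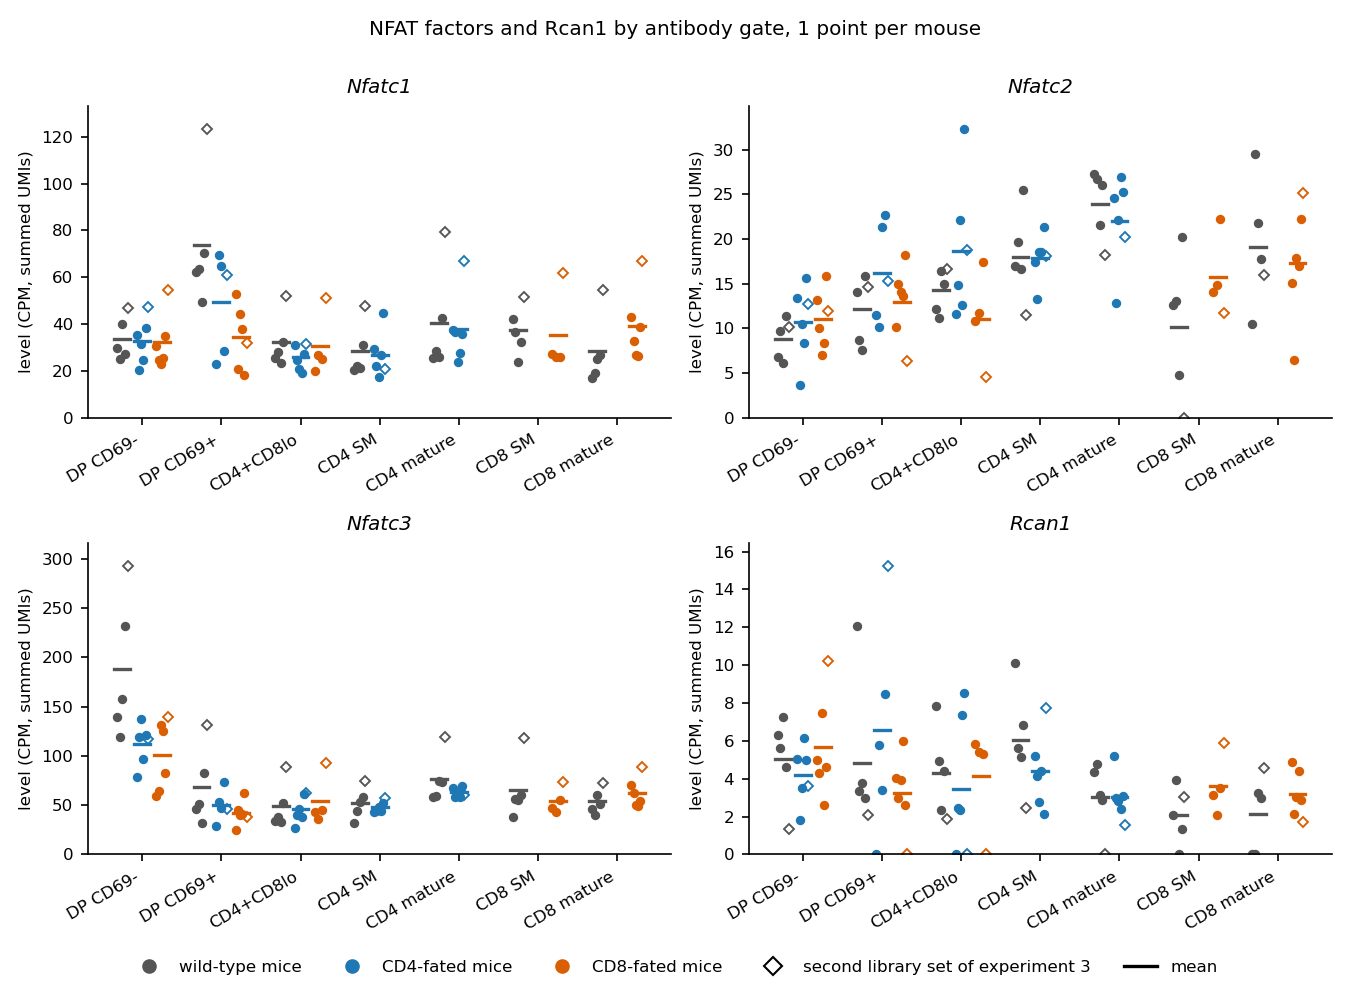
Levels of Nfatc1, Nfatc2, Nfatc3 and Rcan1 (vertical axes, CPM) by antibody gate (horizontal axis), with 1 point per mouse, colored by lineage group, a bar for the mean of each group and open diamonds for the second library set of experiment 3. The 9 unsorted mice have more Nfatc3 in DP CD69- than in DP CD69+ cells, and the diamond of WT replicate 5 is the highest Nfatc1 point, at 123 CPM in DP CD69+ cells.

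Nfatc2, the factor that dominates in resting peripheral T cells, stood at medians of 12.7 CPM in DP CD69- and 14.96 in DP CD69+ cells of the 9 unsorted mice. The change was 0.28 ± 0.23 (adjusted p = 0.47), against 0.76 (adjusted p = 0.0030) in the sorted mice. From CD4 SM to mature CD4 it rose from 11.5, 18.1 and 25.4 to 12.8, 24.6 and 27.3 CPM, higher in 10 of 11 mice, all but AND replicate 2 (0.50 ± 0.09, adjusted p = 4.9e-05, held under each alternative and each mouse left out). The rise from CD4+CD8lo to CD4 SM (0.42 ± 0.15, adjusted p = 0.031) showed in 6 of 11 mice and was lost with total-UMI scaling (0.27, adjusted p = 0.15), under DESeq2 (adjusted p = 0.13) and without any of 4 mice. That from CD8 SM to mature CD8 (0.50 ± 0.18, adjusted p = 0.043; 0, 13.1 and 22.2 against 10.5, 17.9 and 29.6 CPM) showed in 7 of 9 mice. It was lost in 6 of 9 alternatives, with adjusted p up to 0.32 without the mouse as a block, and without any of 6 single mice.

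Rcan1, which binds and inhibits calcineurin and is itself an NFAT target, was counted at 0 to 18.1 CPM over all sums (the highest on 3 UMIs, in a CD4 mature sum of OT-I replicate 2 that enters no comparison), and among the stage steps it passed the low-count filter only from CD4+CD8lo to CD4 SM and from CD4 SM to mature CD4. In CD4 SM it ran from 2.13 through 5.15 to 10.1 CPM and in mature CD4 cells from 0 through 2.98 to 5.23, lower in 8 of 11 mice (-0.47 ± 0.23, adjusted p = 0.12; -0.60 by total UMIs, adjusted p = 0.034). From CD4+CD8lo to CD4 SM the value was 0.35 ± 0.29 with 9 of 11 mice higher (adjusted p = 0.41). The sums held 42, 149 and 76 Rcan1 UMIs in CD4+CD8lo, CD4 SM and mature CD4 cells, and the 95% intervals of the changes, -0.24 to 0.94 and -0.94 to -0.01 on the log2 scale, leave their sizes unsettled at this depth.

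Without the mouse as a block the fit makes far fewer calls, 587 genes from CD4 SM to mature CD4 where the blocked fit calls 2991, as the spread between mice then counts as error. Of the member calls, those of Nfatc1 from DP CD69+ to CD4+CD8lo, of Ppp3cc from CD4+CD8lo to CD4 SM, and of Nfatc2, Nfatc3 and Ppp3cc from CD4 SM to mature CD4 were also made without it. Adjusted p-values of the other calls in the stage steps ran from 0.091 to 0.64 there, except for Ppp3cc toward CD8 SM, which was then left out by the low-count filter.

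The second question was whether CD4-fated and CD8-fated mice differ in these genes at one stage. The covariate was the kind of model (the Rag1-deficient transgenic mice, the MHC-deficient mice, the OT mice), called the family. It carries sort and Rag1 deficiency but not the experiment, which splits the AND and F5 mice, or the library set, which splits the OT mice. The F5 mice had too few cells for sums of CD4+CD8lo (3 and 1) and CD8 SM cells (23 and 24). At those stages AND mice stand alone in their family. They are in the means and ranges given and add to the error, but the lineage difference rests on the MHC-deficient and OT mice. Under edgeR no member passed at any of 5 stages in the gated cells. In DP CD69- cells 0 of 8 passed, with 0 at an unadjusted p under 0.05, against 0.0324% of all genes tested. The counts were 0 of 5 in DP CD69+ (1 unadjusted; 1.48% of genes), 0 of 7 in CD4+CD8lo (2 unadjusted; 0.946% of genes), 0 of 8 in CD4 SM against CD8 SM (1 unadjusted; 8.75% of genes) and 0 of 8 in mature cells (2 unadjusted; 10.6% of genes). The percentages are of genes past the adjusted threshold, so they do not match the unadjusted counts of members. At an unadjusted p under 0.05 edgeR had 444 of 9271 genes in DP CD69-, 641 of 6222 in DP CD69+ and 629 of 7717 in CD4+CD8lo cells. It had 2020 of 9181 in SM and 2236 of 9293 in mature cells. DESeq2 called 0 members at each of the 5 stages. The shares of all genes rest on few mice. With single mice left out the genes called ran from 2 (without AND replicate 2, among others) to 10 (without AND replicate 1) in DP CD69- cells, where the whole fit called 3. They ran from 27 to 147 in DP CD69+, from 20 to 149 in CD4+CD8lo and from 293 to 997 in SM cells. The lowest of each was without MHCII-/- replicate 2, and the highest without OT-I replicate 2, or in CD4+CD8lo cells OT-I replicate 1. Of the genes called, 42.4% in DP CD69+ and 49.7% in mature cells were higher in CD4-fated mice, and 56.6% and 39.2% with total-UMI scaling. With the replicate number as a block, which stands for the experiment in AND and F5 mice and for the library set in OT mice, genes called went from 92 to 213 in DP CD69+, from 73 to 200 in CD4+CD8lo, from 803 to 1637 in SM and from 989 to 1492 in mature cells. Of the members Ppp3cc passed, in SM cells. With the experiment and the library set alone as a block, a setting chosen after seeing the data, 346, 284, 1933 and 1819 genes passed, and so did Ppp3cc in SM and Ppp3ca in mature cells. Missing the threshold does not show that levels were alike.

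Ppp3ca had differences of opposite sign early and late, none past the threshold. In DP CD69+ cells it was 92.3 in AND replicate 1, 76.5 and 137 in the OT-II mice, and 34.7 and 21.4 CPM in the MHCI-/- mice. The CD8-fated mice ran from 22.3 to 41.9 CPM with a median of 32.1, so that the transgenic CD4-fated mice lay above all of them, 1 MHCI-/- mouse within their range and the other below it. The difference was 0.49 ± 0.25 (95% interval -0.02 to 1.01, adjusted p = 0.50). In CD4+CD8lo cells it was 19.96, 48.7 and 90.2 over 6 CD4-fated mice. It was 9.96 and 19.2 in the MHCII-/- and 37.8 and 57.1 in the OT-I mice (0.74 ± 0.25, interval 0.22 to 1.27, adjusted p = 0.26). Without the second library set the difference was 0.86 (adjusted p = 0.044). In mature cells the order was turned, 26.9, 33.7 and 60.5 in CD4-fated against 35.0, 55.1 and 82.3 in CD8-fated mice (-0.47 ± 0.17, interval -0.83 to -0.11, adjusted p = 0.095). It passed without AND and F5 mice (-0.74, adjusted p = 0.026), without the low-count filter (-0.47, adjusted p = 0.040), with total-UMI scaling (-0.52, adjusted p = 0.045), with the experiment and library set as a block (-0.48, adjusted p = 0.038) and without AND replicate 2 (-0.60, adjusted p = 0.031). Between mature SP-like RNA clusters in place of gates it was 0.15 (adjusted p = 0.99), in a fit that called 5 genes where the gates called 989. Those clusters held 86.8% of mature CD4 but 18.9% of mature CD8 cells, so the 2 values do not compare the same cells.

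The change of a member from DP CD69+ to SM was then compared between the lineages in one model with the mouse as a block. Under edgeR 0 of 7 members passed, against 4.93% of genes (62.7% of them positive, 48.7% with total-UMI scaling), and DESeq2 called 0. At an unadjusted p under 0.05 edgeR had 3 members and 1488 of 8770 genes. Ppp3ca had the lowest p, with a change lower by 0.82 ± 0.28 in CD4-fated mice (interval -1.37 to -0.26, adjusted p = 0.078), which passed without MHCI-/- replicate 2 (-1.10, adjusted p = 0.026) and was -0.10 (adjusted p = 0.92) with raised thresholds. The values for Ppp3cc (-1.10 ± 0.43, adjusted p = 0.14) and Nfatc1 (-0.66 ± 0.30, adjusted p = 0.25) had the same sign. That of Nfatc1 passed with raised thresholds (-0.89, adjusted p = 0.046) and without OT-II replicate 1 (-0.90, adjusted p = 0.033).

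For Nfatc1 in DP CD69+ cells the CD4-fated mice had 23.1 (AND replicate 1), 28.3 and 61.0 (OT-II) and 69.4 and 65.0 CPM (MHCI-/-). The CD8-fated mice had 52.8 and 20.95 (F5), 44.2 and 37.7 (MHCII-/-) and 18.2 and 31.9 (OT-I). Both MHCI-/- mice were above all CD8-fated mice, AND replicate 1 and OT-II replicate 1 were within their range, and the groups overlapped. The difference was 0.55 ± 0.21 (interval 0.11 to 0.98, adjusted p = 0.30) and with raised thresholds 0.87 (adjusted p = 0.0018). Between signaled DP-like RNA clusters it was -0.24 and did not pass, in a fit that called 4 genes where the gates called 92. Those clusters held 51.5% of DP CD69+ cells. Nfatc2 was 0.82 ± 0.35 higher in CD4-fated mice in CD4+CD8lo cells (adjusted p = 0.52) and 0.45 ± 0.21 in mature cells (adjusted p = 0.21).

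Nfatc3 differed by 0.18 ± 0.18 in DP CD69- cells and by between -0.05 and 0.19 at the later stages, each with a 95% interval that held 0. Ppp3cc in SM cells was 13.2 ± 7.76 CPM in CD4-fated (mean ± SD, n = 6, with AND mice) and 18.6 ± 8.59 in CD8-fated mice (n = 4, without F5 mice). The difference of -0.77 ± 0.33 (adjusted p = 0.18) passed without AND and F5 mice (-0.75, adjusted p = 0.039) and without either AND mouse (adjusted p = 0.037 and 0.036). It also passed with the replicate number as a block (-0.77, adjusted p = 0.017) and with the experiment and library set as one (-0.77, adjusted p = 0.0081). Ppp3cb in SM cells ran from 67.6 to 85.3 CPM in 6 CD4-fated and from 53.6 to 66.7 in 4 CD8-fated mice. The difference of 0.22 ± 0.15 did not pass (adjusted p = 0.46), and how many of all genes have groups so placed was not counted. Ppp3r1 and Rcan1 did not pass between CD4-fated and CD8-fated mice under any setting run.

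RNA clusters in place of the antibody gates changed the SM comparison. That fit called 3998 genes, where the one of the gates called 803, so a call there is not particular to the members. Between CD4-fated and CD8-fated mice 4 members were then lower in the CD4-fated mice: Ppp3cc by 1.76 (adjusted p = 3.3e-07), Nfatc1 by 0.99 (adjusted p = 2.4e-05), Ppp3ca by 0.96 (adjusted p = 2.0e-05) and Nfatc3 by 0.43 (adjusted p = 0.017). In the gates the same differences were -0.77, -0.21, -0.21 and -0.05. The clusters compared were CD4 SP-like and CD8 SP-like ones, made from RNA without the 8 members. Of CD4 SM cells 38.2% lay in CD4 SP-like and 54.3% in mature SP-like clusters. Of mature CD8 cells 47.0% lay in CD8 SP-like clusters beside 44.6% of CD8 SM cells, so the clusters do not hold the cells of the gates and the CD8 side includes mature cells. Of the CD8 SP-like cells, 467 of 3412 lay in cluster 24, which is led by genes known from innate-like effector cells (Klra1, Cxcr6, Ccl5, S100a4) and had 1 CD8 SP marker among its top 10. Without it 3943 genes were called and the 4 members still passed, at -1.87, -0.74, -0.87 and -0.44 in the same order. The cause of the change was not tested.

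**Figure D4:**
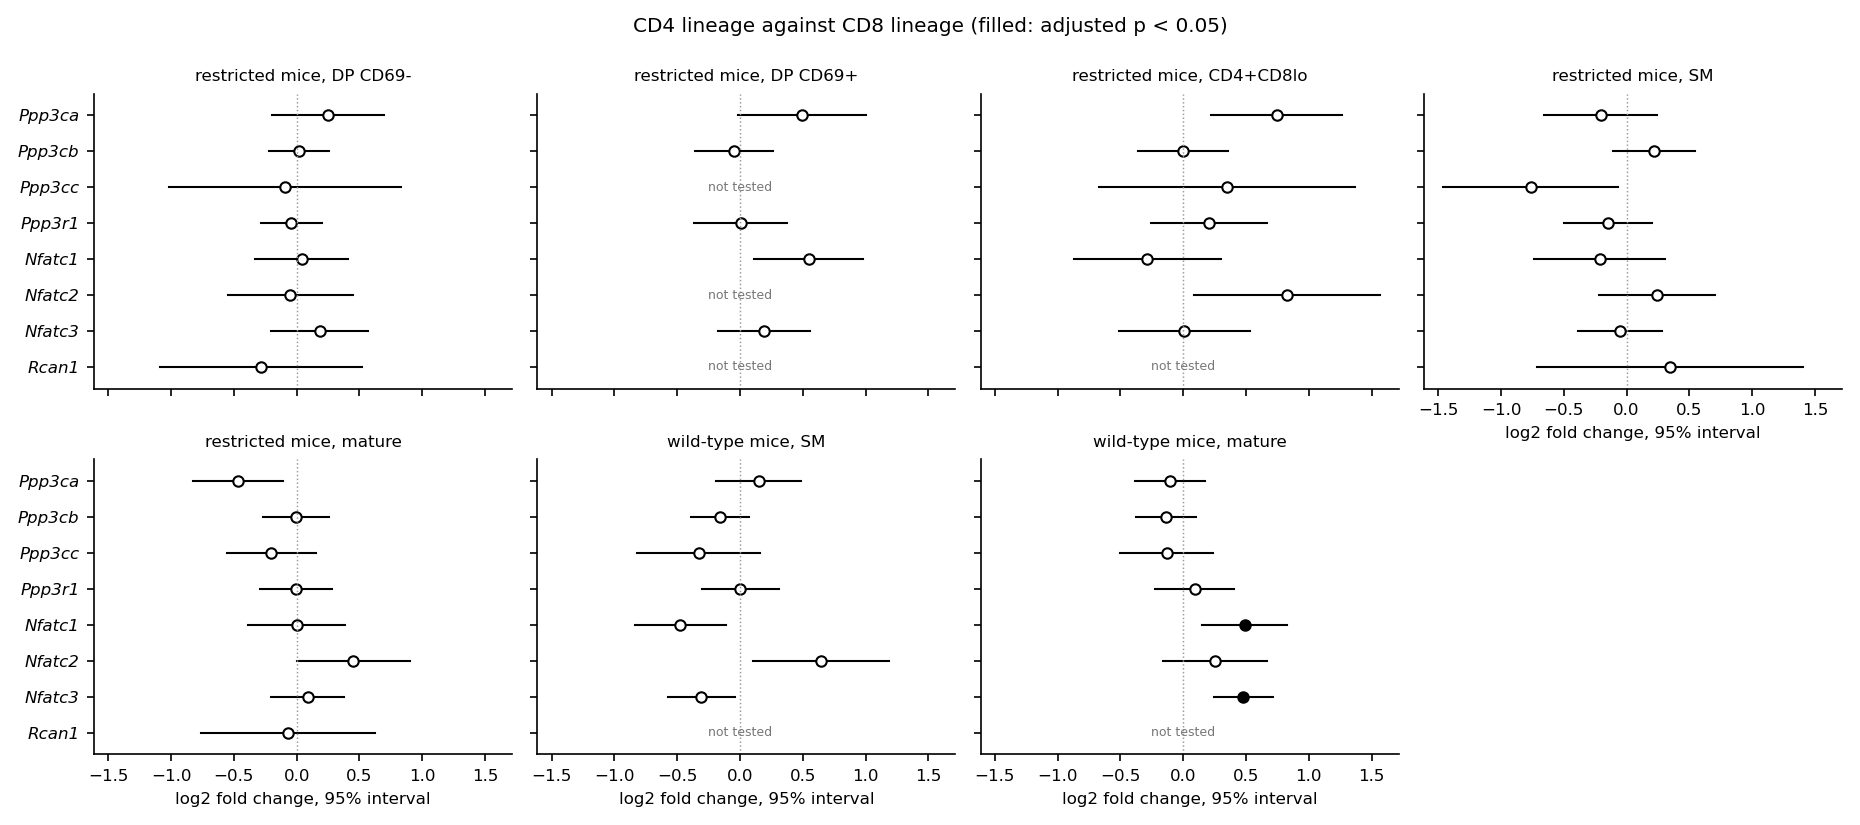
Log2 differences (horizontal axes) of the members between CD4-fated and CD8-fated mice at 5 stages, named restricted mice in the panels, and between CD4 and CD8 cells of wild-type mice at the SM and mature stages, with 95% intervals from edgeR. Filled points passed the adjusted threshold of 0.05. Nfatc1 and Nfatc3 in mature wild-type cells are the points that passed.

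The same contrast was made within the 5 WT mice, where CD4 and CD8 cells come from the same thymus and library. It gave 0 of 7 members in SM cells (DESeq2 0), against 19.2% of genes, and 2 of 7 in mature cells (DESeq2 0), against 18%. At an unadjusted p under 0.05 edgeR had 3 members and 2439 of 8298 genes in SM cells. Nfatc3 in mature CD4 cells of WT replicates 1 to 5 was 58.3, 59.5, 74.6, 73.4 and 119 CPM. In mature CD8 cells it was 46.3, 40.1, 59.9, 51.3 and 72.8 CPM. It was higher in CD4 cells in each mouse, with ranges that overlapped between mice (0.48 ± 0.12, adjusted p = 0.0024). The call held with each mouse left out and was lost under DESeq2 (adjusted p = 0.10) and without the mouse as a block (adjusted p = 0.46).

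Nfatc1 was 25.6, 28.3, 26.1, 42.8 and 79.4 CPM in mature CD4 and 16.8, 19.0, 25.0, 26.6 and 54.6 in mature CD8 cells of the same mice. It too was higher in CD4 cells in each of the 5, by 0.49 ± 0.17 (adjusted p = 0.035). That call was lost under DESeq2 (adjusted p = 0.36), with raised thresholds (adjusted p = 0.12), without the mouse as a block (adjusted p = 0.79) and with any mouse but WT replicate 3 left out (adjusted p of 0.071 to 0.16). In SM cells the order of Nfatc1 was turned: 20.2, 22.0, 21.2, 31.1 and 47.8 CPM in CD4 SM against 42.0, 36.6, 23.9, 32.4 and 51.6 in CD8 SM, lower in CD4 cells in 5 of 5 mice (-0.48 ± 0.18, adjusted p = 0.053). It passed without WT replicate 4 (-0.59, adjusted p = 0.039) or 5 (-0.55, adjusted p = 0.032) and with called doublets kept (-0.49, adjusted p = 0.047). Nfatc2 in SM cells was higher on the CD4 side in 5 of 5 mice (0.64 ± 0.27, adjusted p = 0.089), with a CD8 SM sum at 0 in WT replicate 5. Without the low-count filter it passed (0.76, adjusted p = 0.038), as did Rcan1 (1.55, adjusted p = 0.045).

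The catalytic and regulatory subunits did not pass in mature cells of the WT mice. Ppp3ca was -0.10 ± 0.14, Ppp3cb -0.14 ± 0.12, Ppp3cc -0.13 ± 0.18 and Ppp3r1 0.09 ± 0.16 in CD4 relative to CD8 cells. The 95% intervals of Ppp3ca, Ppp3cc and Ppp3r1 were -0.38 to 0.17, -0.51 to 0.24 and -0.22 to 0.41.

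Genes around the members were counted in fixed lists, by their RNA. The shares of all genes called, against which the counts of the lists below stand, were 18%, 15.2%, 27.6%, 30%, 36.3% and 15.3% in the 6 steps in order, and a list at such a share is not a result about the list. Among 11 textbook NFAT targets, 6 passed the filter at the first step and all 6 rose, with a median of 1.54 against -0.02 over all genes. Cd40lg, the CD4 T cell help ligand, rose by 2.54 ± 0.47 (adjusted p = 0.00026) and in 9 of 9 mice, and the cytokine gene Tnf by 1.56 ± 0.49 (adjusted p = 0.027) with 5 of 9 mice higher. From DP CD69+ to CD4+CD8lo 2 of 6 rose and 4 fell. Cd40lg went from 29.9 ± 19.6 to 103 ± 60.1 CPM (SD, n = 14; 1.91 ± 0.12, adjusted p = 7.3e-15). Egr2, an immediate early factor of TCR signaling, fell by 0.53 ± 0.10 (adjusted p = 0.00019) and Pdcd1, which encodes PD-1, by 0.59 ± 0.11 (adjusted p = 0.00015). Toward CD4 SM 1 of 7 rose and 4 fell, and toward mature CD4 cells 1 of 9 rose and 5 fell, led by Nr4a1 (-1.10 ± 0.11, adjusted p = 2.0e-09). Toward CD8 SM 0 of 6 rose and 5 fell (median -1.19), with Cd40lg down by 3.87 ± 0.27 (adjusted p = 5.3e-11) and Tox, a factor of positive selection, down by 1.66 ± 0.10 (adjusted p = 3.3e-12). Toward mature CD8 cells 0 of 5 rose and 3 fell. Some targets are cell type markers as well. Cd40lg is in the CD4 SP marker list, Pdcd1 in that of negative selection and Ctla4 in that of Tregs. Egr2, Egr3, Nr4a1 and Tox are in the signaled DP marker list. Of DP CD69+ cells of all mice 5.57% lay in CD4 SP-like and 3.87% in mature SP-like clusters. Of DP CD69- cells 0.151% and 0.909% did, and the part of such cells in the Cd40lg rise at the first step was not tested.

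The same lists were counted between the lineages. In CD4-fated against CD8-fated SM cells 3 of 7 targets were higher and 0 lower (median 0.90 against 0.01 for all genes), with Cd40lg at 98.3 ± 39.4 (n = 6) against 5.12 ± 3.23 CPM (n = 4). In mature cells 3 of 7 were higher, in CD4+CD8lo cells 1 of 6 (Egr2, 1.41 ± 0.28, adjusted p = 0.026), and in DP cells 0 of 6 (CD69-) and 0 of 5 (CD69+). In WT mice 5 of 6 targets were higher in CD4 SM and 4 of 7 in mature CD4 cells. The shares of all genes called were 8.75% in SM, 10.6% in mature, 0.946% in CD4+CD8lo, 0.0324% in DP CD69- and 1.48% in DP CD69+ cells, and 19.2% and 18% in the WT comparisons.

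Gata3, Cd5, Id3, Cd28 and Lef1 were linked to NFAT by the study from an enrichment analysis of these samples, so their direction here is not independent evidence. The study had other evidence for Gata3 and Cd5. In cultured thymic slices cyclosporin A or FK506 lowered GATA3 protein in CD69+ DP cells, and cyclosporin A reduced the DP cells high in both CD5 and GATA3. From DP CD69- to DP CD69+ 2 of 5 rose, Lef1 by 0.83 ± 0.13 (adjusted p = 5.7e-05) and Cd28 by 0.51 ± 0.15 (adjusted p = 0.013). At the next step 4 of 5 fell, Id3 and Cd5 by 0.96 each (adjusted p = 5.2e-12 and 7.5e-11). Gata3, the factor that CD4 commitment needs, was 317 ± 123 CPM in DP CD69+ cells of 5 CD4-fated mice and 155 ± 35.0 of 6 CD8-fated mice (0.99 ± 0.22, adjusted p = 0.026). Its levels were 245 ± 57.7 (n = 6) against 94.2 ± 33.4 (n = 4) in CD4+CD8lo cells (1.39 ± 0.29, adjusted p = 0.035). Of the 5, the number higher in CD4-fated mice was 0 in DP CD69-, 1 in DP CD69+, 3 in CD4+CD8lo, 2 in SM and 2 in mature cells. In WT mice 4 of the 5 were higher and 1 lower in CD4 SM than in CD8 SM cells, where 19.2% of all genes passed. In mature WT cells 3 were higher and 0 lower on the CD4 side, where 18% passed.

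Upstream of calcineurin, 13 genes of calcium entry, release and binding moved in both directions. At the first step 2 of 12 rose and 3 fell. Orai1, the pore of the store-operated calcium channel, rose from 31.9 ± 13.5 to 55.6 ± 21.6 CPM (SD, n = 9; 1.01 ± 0.19, adjusted p = 0.00042). The calcium release channels Itpr1 and Itpr2 fell by 0.98 ± 0.23 (adjusted p = 0.0030) and 0.84 ± 0.12 (adjusted p = 7.6e-06). Itpr1 rose at the next step (0.66 ± 0.13, adjusted p = 0.00038). In CD4-fated SM cells it exceeded the CD8-fated level by 1.38 ± 0.23 (adjusted p = 0.0014) and in mature cells by 0.92 ± 0.18 (adjusted p = 0.0040). Orai3 had the opposite order, lower in CD4-fated mature cells by 0.84 ± 0.15 (adjusted p = 0.0028), and it rose toward CD8 SM by 1.66 ± 0.29 (adjusted p = 5.6e-05). The numbers rising and falling in the later steps were 2 and 0 of 12 toward CD4+CD8lo, 0 and 2 of 13 toward CD4 SM, 4 and 3 toward mature CD4, 2 and 4 toward CD8 SM, and 2 and 2 toward mature CD8 cells.

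Among other inhibitors and partners of calcineurin, some genes changed. Rcan3, a relative of Rcan1, rose toward CD4+CD8lo (0.61 ± 0.15, adjusted p = 0.0039) and CD4 SM (0.72 ± 0.11, adjusted p = 4.0e-06). In SM cells it was 38.9 ± 7.93 CPM in CD4-fated (n = 6) against 16.6 ± 3.79 in CD8-fated mice (n = 4; 1.27 ± 0.22, adjusted p = 0.0015). Fkbp1a, which encodes the protein through which FK506 blocks calcineurin, rose toward CD4+CD8lo in 14 of 14 mice (0.60 ± 0.07, adjusted p = 1.2e-07). It fell after it in both lineages, by 0.37 ± 0.08 toward CD4 SM (adjusted p = 0.00025) and 0.72 ± 0.11 toward CD8 SM (adjusted p = 6.9e-06). Cabin1, a protein that binds calcineurin, was lower in CD4-fated mature cells by 0.69 ± 0.12 (adjusted p = 0.0014). Of 6 genes in this list 4 could be tested, and over the 6 steps in order 1, 3, 1, 0, 1 and 1 rose and 0, 0, 2, 1, 1 and 1 fell.

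Among 11 kinases and export factors that return NFAT to the cytoplasm, 1, 1, 0, 1, 1 and 0 rose and 2, 2, 3, 3, 5 and 2 fell over the same steps, of 8 or 9 tested. Csnk1e, which encodes casein kinase 1 epsilon, fell at each of the 6 steps, by 0.24 to 0.70 on the log2 scale. Xpo1, the nuclear export receptor, rose at the first 2 (0.59 ± 0.18, adjusted p = 0.023, and 0.40 ± 0.10, adjusted p = 0.0026). No gene of this list passed between CD4-fated and CD8-fated mice at any stage under edgeR. Of the remaining NFAT and calcineurin genes, Nfat5, an NFAT relative that calcineurin does not control, fell from CD4 SM to mature CD4 in 11 of 11 mice (-0.41 ± 0.07, adjusted p = 1.9e-05). It also fell toward CD8 SM (-0.62 ± 0.12, adjusted p = 0.00031) and from CD8 SM to mature CD8 (-0.42 ± 0.13, adjusted p = 0.017). Ppp3r2 and Nfatc4 did not pass the filter in any comparison.

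The last question was where the members are highest among the cell types of the WT thymus. Cells were clustered on RNA without the members and clusters named from fixed markers, and the levels below are means ± SD over WT mice with at least 30 such cells, for types found in at least 3 mice, as a description with no test. The means pool the sorted WT replicates 1 to 3 with the unsorted replicates 4 and 5. In cycling-like cells, for one, Nfatc3 was 89.5, 85.9 and 102 CPM in the sorted and 140 and 173 in the unsorted mice. DN-like cells, found in 2 WT mice, are outside these orders. Unnamed clusters 9 and 25, each found in 1 WT mouse, are outside them as well and held values beyond their ends. Cluster 25 had 261 CPM of Nfatc3 (77 UMIs), 187 of Ppp3cb (55 UMIs) and, on 3 UMIs each, 10.2 of Ppp3ca and Rcan1, cluster 9 had 71.3 of Ppp3r1 (21 UMIs), and both had 3.40 of Ppp3cc on 1 UMI. Neighbors in an order are said to differ beyond their spread where their means differ by at least the larger SD, which held for 1 of 9 pairs for Nfatc2, Nfatc3, Ppp3ca and Ppp3cb and for 0 for the others. Nfatc3 was 257.8 ± 43.9 CPM in quiescent DP-like cells (n = 5), beyond the spread above cycling-like cells (118 ± 37.6, n = 5), and lowest in CD4 SP-like (39.4 ± 10.996, n = 4) and negative selection-like cells (39.5 ± 22.6, n = 3), which were level with each other. Nfatc1 was highest in negative selection-like cells (97.1 ± 41.0, n = 3), followed by Treg-like (69.4 ± 14.8, n = 4) and signaled DP-like cells (65.9 ± 24.5, n = 5), and lowest in cycling-like cells (18.7 ± 7.38, n = 5). Nfatc2 ran from 25.3 ± 8.29 in myeloid-like (n = 3) and 22.4 ± 3.70 in CD8 SP-like cells (n = 5) to 4.92 ± 1.47 in cycling-like cells, with mature SP-like (22.1 ± 6.25) beyond the spread above CD4 SP-like cells (15.8 ± 1.39). The myeloid-like value rests on 3, 8 and 9 UMIs, and the types were not found in the same mice. In WT replicate 5 fewer than 30 cells lay in CD4 SP-like or in Treg-like clusters. Yet 478 of its cells were gated as CD4 SM and 228 as mature CD4, and 1387 lay in mature SP-like clusters. Clustering did not correct for the library, and a quiescent DP-like cluster was 95.4% WT replicate 5. A type of this mouse may therefore not hold the same cells as in the other mice. Without WT replicate 5, left out after seeing the data, mature SP-like cells were highest in Nfatc2 (24.4), with CD8 SP-like and myeloid-like cells at 21.5 and 21.4 CPM.

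**Figure D5:**
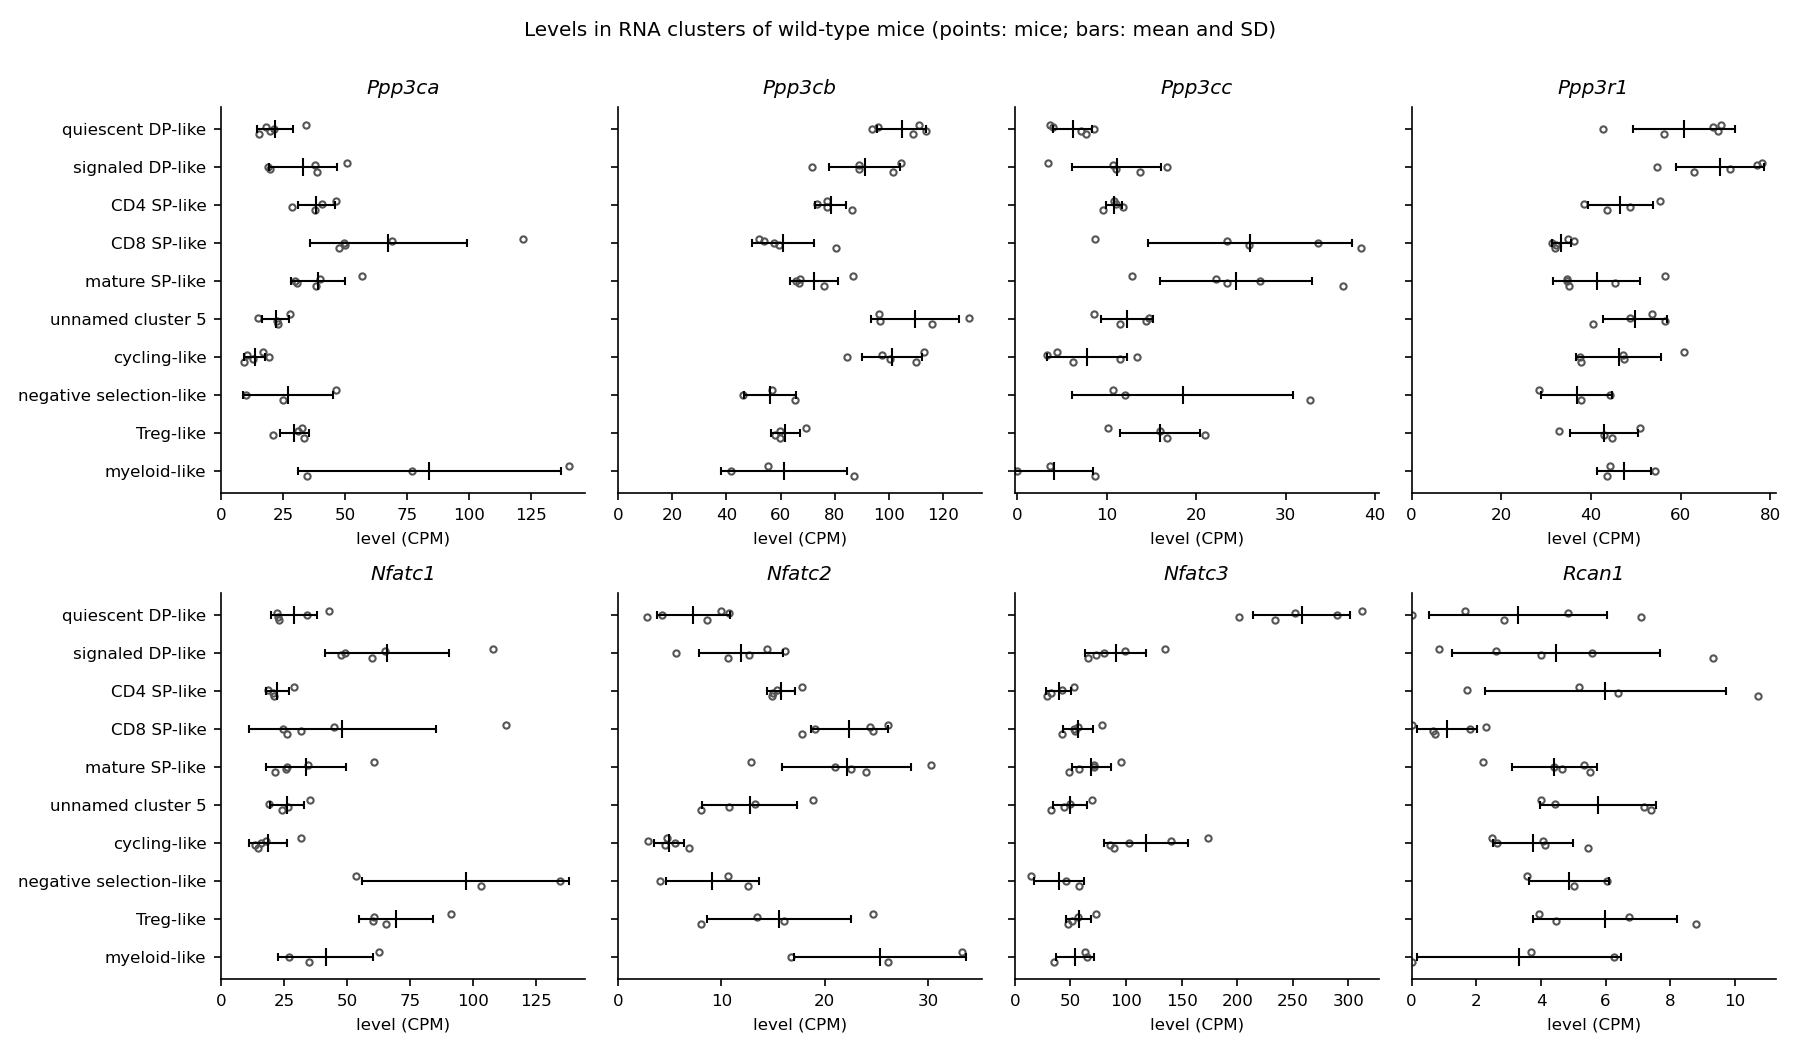
Levels (horizontal axes, CPM) of the 8 members in 10 cell types of wild-type thymus, with points for mice and crossed bars for the mean and SD. The mean of Nfatc3 is 257.8 CPM in quiescent DP-like cells and 118 in cycling-like cells, the next in its order.

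The catalytic subunits had unlike orders. Ppp3ca was 84.1 ± 53.1 CPM in myeloid-like (n = 3) and 67.5 ± 31.5 in CD8 SP-like cells (n = 5), and 21.8 ± 7.40 in quiescent DP-like and 13.7 ± 4.24 in cycling-like cells, which were beyond the spread from each other. The myeloid-like mice were at 34.8 (WT replicate 1, 4 UMIs), 77.2 (WT replicate 4) and 140 CPM (WT replicate 5). Without WT replicate 5 the means were 56.0 in myeloid-like and 54.0 in CD8 SP-like cells, and in WT replicate 1 the order was turned (34.8 and 47.7). Ppp3cb was highest in an unnamed cluster (110 ± 16.2, n = 4) and in quiescent DP-like cells (105 ± 9.16), and lowest in negative selection-like cells (56.2 ± 9.61, n = 3). Ppp3cc was 26.0 ± 11.4 in CD8 SP-like and 24.4 ± 8.50 in mature SP-like cells and lowest in myeloid-like cells (4.13 ± 4.37), which held 2 UMIs in all. Ppp3r1 was highest in signaled DP-like cells (68.8 ± 9.86) and lowest in CD8 SP-like cells (33.3 ± 2.11), and Rcan1 lay between 1.10 ± 0.93 (CD8 SP-like) and 5.99 ± 3.72 (CD4 SP-like). Cluster 24 held 194 of the 1080 wild-type CD8 SP-like cells, and without it WT replicate 5 had fewer than 30 cells left. In the other 4 mice Ppp3ca was 54.0 ± 9.99 with the cluster and 46.3 ± 6.83 without it, and Nfatc2 21.5 ± 3.54 and 18.8 ± 3.46. Ppp3cc was 30.4 ± 6.91 and 31.5 ± 6.13, Ppp3r1 33.0 ± 2.25 and 33.4 ± 4.29, and Rcan1 1.37 ± 0.81 and 1.35 ± 0.97.

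Genes with the most similar pattern were looked for over 21 points, the mean levels of the lineage groups in the gates (DP3 and the gates of the other lineage included), among 5718 genes with a mean of at least 20 CPM. These correlations are descriptions over points that share mice and libraries. Ppp3cb was closest to Akr1a1 (Pearson r = 0.94), Ppp3r1 to Calm3 (0.92), Nfatc3 to Traf3ip3 (0.90), Ppp3cc to Lrrc8a (0.88), Nfatc2 to Tbc1d1 (0.87), Ppp3ca to Arl2bp (0.80) and Nfatc1 to Gpalpp1 (0.73). Calm3, one of the genes for calmodulin, the calcium sensor that binds calcineurin, was on the pathway list, and it fell beside Ppp3r1 from CD4+CD8lo to CD4 SM by 0.42 ± 0.05 (adjusted p = 1.2e-07, lower in 11 of 11 mice).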

How the data were processed

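RNA and surface proteins were counted by CITE-seq (10x Genomics 3′ v3 chemistry, TotalSeq-A antibodies) in 19 lanes from 17 mice. The deposited UMI counts were made by the authors with Cell Ranger 3.1.0 against mm10 (GRCm38); they were raw whole-number counts per gene and antibody, and none was normalized. Reads were counted near the 3′ end, so transcripts of one gene with the same end cannot be separated.

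Of 85389 barcodes 72054 passed filters, 2906 called doublets (4.03%) were left out, and 15477 cells were left out by the name of their cluster. Gates were set on log2(1 + antibody UMIs per 10000), and UMIs were summed per mouse and gate with at least 30 cells; sums held 65568 UMIs or more. Sums were tested with edgeR 4.0.16 (R 4.3.3; quasi-likelihood, TMM scaling, genes kept by filterByExpr, Benjamini-Hochberg adjustment over all genes, threshold 0.05), with the mouse as a block in stage steps, in the wild-type comparison and in the interaction, and the genotype family as a covariate between lineages. The pairing by mouse comes from the animal itself. A step between stages used only mice with both sums. Intervals are 95% intervals of the moderated test. Clusters were made with scanpy 1.11.5 and leidenalg 0.10.2 on genes other than the members and named from marker lists. Alternatives were DESeq2 1.42.0, RLE and total-UMI scaling, no low-count filter, doublets kept, gate thresholds moved by 0.25, other blocks and covariates, fewer mice and RNA clusters. Scaling by total UMIs, leaving out the second library set, the block of experiment and library set, and leaving out cluster 24 were chosen after seeing the data. The members and gene lists were chosen with earlier results of these data known. Genes named outside the members were those past the threshold with the 2 largest changes in each direction per list and comparison. In simulated counts with 2-fold changes edgeR recovered 100% of 200 changed genes from DP CD69+ to CD4+CD8lo (8052 genes), 86.2% of 195 between lineages in DP CD69+ (6106 genes), 98.0% of 200 in wild-type SM (8067 genes) and 72.5% of 200 in the interaction (8466 genes). The gene whose pattern was closest to that of Rcan1 is not reported here. Replicates are mice. With the mouse as a block, p-values set the change within mice against how much that change varies over mice. Between lineages they set the difference against the spread between mice beyond their family. Fate there is fixed by the genotype, and mice of one genotype count as separate replicates.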

Additional observations from a re-analysis of the deposited data

Results flagged for a closer look

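Within the 136 sets of 4 to 6 mice of one member, lineage group and gate, 15 held a mouse whose gap to the nearest other mouse was too large a share of the whole range by Dixon's 95% limit, where chance alone gives about 1 in 20. In CPM, WT replicate 5 stood apart from the other WT mice for Nfatc1 in DP CD69+ cells (123, others 49.3 to 70.5) and mature CD8 cells (54.6, others 16.8 to 26.6). It did so for Nfatc3 in mature CD4 (119, others 58.3 to 74.6) and CD8 SM cells (118, others 37.8 to 60.8), for Ppp3ca in mature CD4 cells (81.1, others 37.5 to 49.1) and for Ppp3r1 in CD8 SM cells (60.7, others 36.5 to 40.6).

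OT-II replicate 2 was above the other CD4-fated mice for Nfatc1 in mature CD4 cells (66.7, others 23.7 to 37.6) and for Ppp3cb in CD4 SM (85.3, others 67.6 to 73.6) and CD4+CD8lo cells (113, others 79.2 to 91.0). OT-I replicate 2 was above the other CD8-fated mice for Nfatc1 in CD8 SM (61.7, others 25.8 to 27.3) and for Nfatc3 in CD4+CD8lo cells (93.2, others 36.0 to 45.4), and below them in CD4+CD8lo cells for Ppp3r1 (34.6, others 51.4 to 52.2) and for Rcan1 (0, others 5.29 to 5.81). These 3 mice form the second library set of experiment 3, and its part in the values was not tested.

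Outside that set, MHCII-/- replicate 2 was below the other CD8-fated mice for Ppp3cb in CD8 SM cells (53.6, others 64.7 to 66.7), and WT replicate 1 was above the other WT mice for Rcan1 in DP CD69+ cells (12.1, others 2.09 to 3.79), a value that rests on 6 UMIs.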

How the results depend on the processing

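Over the alternative settings, 871 of 1029 log2 values of members kept their direction and their side of the threshold, 50 no longer passed, 33 newly passed and 75 turned in sign, while 228 of 310 counts and levels stayed within the limits set. No log2 value that passed the threshold in the gated cells turned in sign under a setting, and the cause of the changes was not tested.

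With DESeq2, genes called numbered 792 from CD8 SM to CD8 mature, 11 between lineages in DP CD69- cells, 868 in wild-type SM cells, 631 in wild-type mature cells and 173 in the interaction. Members called numbered 3 from CD4+CD8lo to CD4 SM, 3 from CD4+CD8lo to CD8 SM, 1 from CD8 SM to CD8 mature and 0 in wild-type mature cells. Signs turned for Nfatc1 (-0.023) from CD8 SM to CD8 mature, Nfatc1 (0.00059) between lineages in mature cells and Ppp3r1 (-0.025) in wild-type SM cells. With scaling by total UMIs, genes called numbered 3942 from CD4+CD8lo to CD4 SM. Members called numbered 3 from CD4+CD8lo to CD4 SM and 1 between lineages in mature cells. The direction turned for Nfatc2 (-0.0052) from DP CD69+ to CD4+CD8lo, Nfatc1 (-0.050) from CD4+CD8lo to CD4 SM, Nfatc1 (-0.049) and Nfatc3 (-0.014) from CD8 SM to CD8 mature and Ppp3cb (0.025) between lineages in DP CD69+ cells. With RLE scaling, the sign turned for Ppp3cb (0.0073) between lineages in CD4+CD8lo cells. Without the low-count filter, genes called numbered 133 between lineages in DP CD69- cells, 207 between lineages in DP CD69+ cells, 195 between lineages in CD4+CD8lo cells and 1492 between lineages in mature cells. Members called numbered 1 between lineages in mature cells and 2 in wild-type SM cells. Values of opposite sign were those of Ppp3cb (0.0036) from CD8 SM to CD8 mature, Ppp3r1 (-0.031) between lineages in DP CD69+ cells and Nfatc3 (-0.0079) between lineages in CD4+CD8lo cells. With called doublets kept, members called numbered 1 in wild-type SM cells. Signs turned for Ppp3cb (-0.0050) between lineages in DP CD69- cells, Nfatc3 (-0.050) and Ppp3cb (0.027) between lineages in CD4+CD8lo cells, Nfatc1 (0.0034) and Ppp3r1 (0.0036) between lineages in mature cells and Nfatc2 (-0.023) in the interaction. With thresholds raised by 0.25, genes called numbered 942 from DP CD69- to DP CD69+ and 496 between lineages in DP CD69+ cells. Members called numbered 3 from CD4+CD8lo to CD8 SM, 1 between lineages in DP CD69+ cells, 1 in wild-type mature cells and 1 in the interaction. The direction turned for Nfatc1 (-0.088) from CD4+CD8lo to CD4 SM, Nfatc2 (0.039), Ppp3cb (-0.015) and Ppp3cc (0.069) between lineages in DP CD69- cells, Ppp3r1 (-0.11) between lineages in DP CD69+ cells, Ppp3cb (0.092) between lineages in CD4+CD8lo cells, Nfatc1 (0.0030) between lineages in SM cells, Ppp3cb (0.0066) between lineages in mature cells, Ppp3r1 (-0.054) in wild-type SM cells and Nfatc2 (-0.0056) in the interaction. With thresholds lowered by 0.25, genes called numbered 61 between lineages in DP CD69+ cells. Members called numbered 2 from DP CD69+ to CD4+CD8lo. Of the members, the sign turned for Nfatc1 (-0.066) from CD8 SM to CD8 mature, Nfatc2 (0.069), Ppp3cb (-0.047) and Ppp3cc (0.0077) between lineages in DP CD69- cells, Ppp3cb (0.11) between lineages in DP CD69+ cells, Ppp3r1 (-0.031) between lineages in CD4+CD8lo cells, Ppp3cb (0.010) between lineages in mature cells and Ppp3ca (-0.021) in wild-type SM cells. Without the mouse as a block, genes called numbered 71 from DP CD69- to DP CD69+, 216 from DP CD69+ to CD4+CD8lo, 562 from CD4+CD8lo to CD4 SM, 587 from CD4 SM to CD4 mature, 1042 from CD4+CD8lo to CD8 SM, 124 from CD8 SM to CD8 mature, 241 in wild-type SM cells, 207 in wild-type mature cells and 94 in the interaction. Members called numbered 0 from DP CD69- to DP CD69+, 1 from CD4+CD8lo to CD4 SM, 3 from CD4 SM to CD4 mature, 0 from CD4+CD8lo to CD8 SM, 0 from CD8 SM to CD8 mature and 0 in wild-type mature cells. Values of opposite sign were those of Ppp3ca (0.0046) from DP CD69+ to CD4+CD8lo and Ppp3r1 (-0.037) in wild-type SM cells. Without the second library set, genes called numbered 948 from DP CD69- to DP CD69+, 5 between lineages in DP CD69- cells, 292 between lineages in DP CD69+ cells, 326 between lineages in CD4+CD8lo cells and 1551 between lineages in SM cells. Members called numbered 2 from DP CD69+ to CD4+CD8lo, 1 between lineages in CD4+CD8lo cells, 1 in wild-type SM cells and 1 in wild-type mature cells. Signs turned for Ppp3cb (-0.0046) between lineages in DP CD69- cells, Ppp3r1 (-0.019) between lineages in DP CD69+ cells and Ppp3cb (0.050) and Ppp3r1 (0.030) between lineages in mature cells. In the sorted mice, genes called numbered 3575 from DP CD69- to DP CD69+. Members called numbered 4 from DP CD69- to DP CD69+. Without the family covariate, genes called numbered 0 between lineages in DP CD69- cells, 12 between lineages in DP CD69+ cells, 37 between lineages in CD4+CD8lo cells, 500 between lineages in SM cells and 358 between lineages in mature cells. Of the members, the sign turned for Nfatc2 (0.046) between lineages in DP CD69- cells, Ppp3r1 (-0.020) between lineages in DP CD69+ cells and Nfatc3 (-0.25) and Ppp3cb (0.0023) between lineages in CD4+CD8lo cells. The replicate numbers pair mice in part: AND and F5 mice of one number share an experiment and OT-I and OT-II mice of one number a library set, while MHC-deficient mice share only the number. Deviations of same-numbered mice correlated at 0.21 to 0.22, 0.26 to 0.59 and -0.029 to 0.022 in these families. With the replicate number as a block, genes called numbered 6 between lineages in DP CD69- cells, 213 between lineages in DP CD69+ cells, 200 between lineages in CD4+CD8lo cells, 1637 between lineages in SM cells and 1492 between lineages in mature cells. Members called numbered 1 between lineages in SM cells. Values of opposite sign were those of Ppp3r1 (-0.053) between lineages in DP CD69+ cells and Nfatc1 (0.015), Ppp3cb (0.013) and Ppp3r1 (0.0094) between lineages in mature cells. With the experiment and library set as a block, genes called numbered 10 between lineages in DP CD69- cells, 346 between lineages in DP CD69+ cells, 284 between lineages in CD4+CD8lo cells, 1933 between lineages in SM cells and 1819 between lineages in mature cells. Members called numbered 1 between lineages in SM cells and 1 between lineages in mature cells. Signs turned for Ppp3r1 (-0.041) between lineages in DP CD69+ cells and Nfatc1 (0.016), Ppp3cb (0.012) and Ppp3r1 (0.011) between lineages in mature cells. With RNA clusters but without cluster 24, genes called numbered 3943 between lineages in SM cells. Members called numbered 4 between lineages in SM cells. The direction turned for Nfatc2 (-0.21) and Ppp3r1 (0.17) between lineages in SM cells. Without AND and F5 mice, genes called numbered 1 between lineages in DP CD69- cells and 38 between lineages in CD4+CD8lo cells. Members called numbered 1 between lineages in SM cells and 1 between lineages in mature cells. Of the members, the sign turned for Nfatc2 (0.073), Nfatc3 (-0.040), Ppp3cc (0.55) and Ppp3r1 (0.051) between lineages in DP CD69- cells, Ppp3cb (0.0043) between lineages in CD4+CD8lo cells and Ppp3r1 (0.15) between lineages in mature cells. With RNA clusters in place of gates, genes called numbered 0 between lineages in DP CD69- cells, 4 between lineages in DP CD69+ cells, 3998 between lineages in SM cells and 5 between lineages in mature cells. Members called numbered 4 between lineages in SM cells. Values of opposite sign were those of Nfatc1 (-0.039), Nfatc3 (-0.046), Ppp3cb (-0.17) and Ppp3r1 (0.18) between lineages in DP CD69- cells, Nfatc1 (-0.24) and Ppp3r1 (-0.035) between lineages in DP CD69+ cells, Nfatc2 (-0.34) and Ppp3r1 (0.18) between lineages in SM cells and Nfatc3 (-0.15), Ppp3ca (0.15), Ppp3cc (0.32), Ppp3r1 (0.075) and Rcan1 (0.095) between lineages in mature cells.

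With single mice left out, values ran from 934 to 1445 for genes called and -0.060 to 0.063 for Ppp3cb from DP CD69- to DP CD69+. They ran from 1 to 2 for members called and -0.042 to 0.14 for Nfatc2 from DP CD69+ to CD4+CD8lo. They ran from 3 to 5 for members called from CD4+CD8lo to CD4 SM. They ran from 3 to 5 for members called from CD4+CD8lo to CD8 SM. They ran from -0.072 to 0.10 for Nfatc1 and -0.068 to 0.036 for Ppp3cb from CD8 SM to CD8 mature. They ran from 2 to 10 for genes called, -0.026 to 0.15 for Nfatc1, -0.13 to 0.095 for Nfatc2, -0.0064 to 0.069 for Ppp3cb, -0.34 to 0.22 for Ppp3cc and -0.075 to 0.0050 for Ppp3r1 between lineages in DP CD69- cells. They ran from 27 to 147 for genes called, -0.11 to 0.043 for Ppp3cb and -0.100 to 0.13 for Ppp3r1 between lineages in DP CD69+ cells. They ran from 20 to 149 for genes called, -0.16 to 0.23 for Nfatc3 and -0.097 to 0.092 for Ppp3cb between lineages in CD4+CD8lo cells. They ran from 293 to 997 for genes called, 0 to 1 for members called and -0.11 to 0.015 for Nfatc3 between lineages in SM cells. They ran from 0 to 1 for members called, -0.13 to 0.14 for Nfatc1, -0.069 to 0.058 for Ppp3cb, -0.069 to 0.061 for Ppp3r1 and -0.24 to 0.11 for Rcan1 between lineages in mature cells. They ran from 0 to 1 for members called and -0.049 to 0.096 for Ppp3r1 in wild-type SM cells. They ran from 1 to 2 for members called and -0.0098 to 0.18 for Ppp3r1 in wild-type mature cells. They ran from 173 to 474 for genes called, 0 to 1 for members called, -0.17 to 0.39 for Nfatc2 and -0.29 to 0.014 for Ppp3r1 in the interaction. Of 961 such log2 values 33 no longer passed and 12 newly passed. A member at few UMIs can miss the threshold whatever its change.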
